A study of Mus musculus with 9 samples.

Results

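The 10 genes described here mark epithelial or mesenchymal identity. They are the keratin genes Krt7, Krt8, Krt18 and Krt19, the cadherin genes Cdh1 and Cdh2, the vimentin gene Vim, and the genes of the transcriptional repressors Zeb1, Zeb2 and Snai2. They were chosen by name and make up 10 of the 55487 genes in the table. Each name stood on 1 row. Poly(A) RNA had been sequenced from 9 libraries of D2.0R (also D2.OR), an established mouse mammary adenocarcinoma line. The cells had been loaded with CellTrace Far Red, a dye diluted at each division, cultured for 1 week in DMEM with 2% serum and glutamax, and sorted into dye-retaining (CTFR+) and dye-poor (CTFR-) cells. No genotype, transgene or drug is named for any library.

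The labels name CTFR-positive, bulk and CTFR-negative samples but tie no library to a kind, so 0 of the 9 libraries could be given a group. Libraries are called here by the running number in their titles, and values are given for each. The labels do not say whether runs of these numbers (1 to 3, 4 to 6, 7 to 9) or places within a run match groups of the study. Runs and places carry no mean, SD or test here, and none of them is read as quiescent or proliferating. No source used here says whether the libraries came from separate cultures, so the tests describe differences between these libraries.

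Epithelial cells are held together by E-cadherin, the product of Cdh1, and braced by keratin filaments. A keratin filament is built from a type II keratin, such as K7 or K8, paired with a type I keratin, such as K18 or K19. K8 and K18 are the usual pair of simple and luminal mammary epithelium. Mesenchymal cells carry vimentin filaments and often N-cadherin, the product of Cdh2. ZEB1, ZEB2 and SNAI2 (Slug) bind E-box sequences and repress epithelial genes such as Cdh1. Cells passing from the epithelial to the mesenchymal state (EMT), and many carcinoma lines, hold mixtures of both sets.

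The keratin members Krt7, Krt8 and Krt18 lie on chromosome 15 of the mouse build GRCm38, which is also the build named in the submitters' processing notes. Krt8 (ENSMUSG00000049382) lies at 101996698 to 102004482 on the minus strand and Krt18 (ENSMUSG00000023043) at 102028180 to 102032027 on the plus strand. These genes point away from each other with 23.7 kb between them. Krt7 (ENSMUSG00000023039, 101411043 to 101430313) lies 566.4 kb before Krt8.

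Upstream bases of Krt8 and Krt18 are shown because the levels of these neighbours came apart between libraries (below). They come from RefSeq promoter windows of GRCm38.p6, which span 250 bases before to 50 bases after a start. Each stretch runs from the far end of its window up to the first annotated transcript base, at chr15:102004483-102004592 (minus strand) and chr15:102027966-102028179 (plus strand). No base is marked, and no binding was measured.
Krt8: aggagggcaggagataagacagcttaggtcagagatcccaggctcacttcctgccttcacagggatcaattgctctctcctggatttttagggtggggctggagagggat
Krt18: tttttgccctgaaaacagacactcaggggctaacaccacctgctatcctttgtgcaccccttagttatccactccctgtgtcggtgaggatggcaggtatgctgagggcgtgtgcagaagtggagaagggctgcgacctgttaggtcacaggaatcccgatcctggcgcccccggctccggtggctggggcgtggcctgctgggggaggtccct
The Krt8 stretch is 110 bases long with 53.6% G and C, and the Krt18 stretch 214 bases with 60.7%.

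Levels are estimated counts per 1000000 (CPM) after TMM scaling. Library totals ran from 18732737 (library 9) to 41243036 (library 7) counts, and a floor of 3 counts stood at 0.0748 to 0.163 CPM. A gene was tested if its mean was at least 1 CPM, which 12328 genes met, 8 of the 10 among them. Krt19 and Cdh2 did not. A gene is called variable here when a chi-square test of dispersion gave a Benjamini-Hochberg adjusted p under 0.05 and the extreme libraries lay at least 2-fold apart on log2 CPM. Of the 8 tested genes 5 were variable (Krt7, Krt8, Krt18, Cdh1 and Zeb1), and Vim, Zeb2 and Snai2 were not. The background was 3368 variable genes, or 27.3% of those tested. The median range was 1.49 on the log2 scale for the 8 genes and 0.67 for all tested genes. Counting noise alone was exceeded by each of the 8, but also by 96.0% of tested genes.

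Per kilobase of annotated exon, which allows genes to be compared, the mesenchymal filament gene led by far. Vim had a median of 974.5 CPM per kb and had rank 18 by mean level per kb among 12318 tested genes with a known length. Krt8 followed with 104 CPM per kb (rank 270), Krt18 with 64.1 (rank 702) and Snai2 with 63.2 (rank 724). The ranges of Krt8 (74 to 337), Krt18 (26.3 to 108) and Snai2 (45.8 to 75.8 CPM per kb) overlap across libraries. Within each library, however, Krt8 lay above Snai2, over similar exon lengths (1.958 and 2.021 kb). Krt8 also lay above Krt18 per kb in all libraries except library 1. Zeb2 had 12.3 CPM per kb (rank 4280). Cdh1 stood at 1.80, Krt7 at 0.395 and Zeb1 at 0.165 CPM per kb, and Cdh2 and Krt19 had medians of 0.0541 and 0.0151. The ranges of Krt7 (0.200 to 0.685) and Zeb1 (0.0317 to 0.377) overlap, as do those of Zeb1 and Cdh2 (0.0142 to 0.102) and of Cdh2 and Krt19 (0 to 0.0377). Vim, Snai2 and Zeb2 transcripts were thus present beside Krt8 and Krt18, all above Cdh1.

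**Figure D1:**
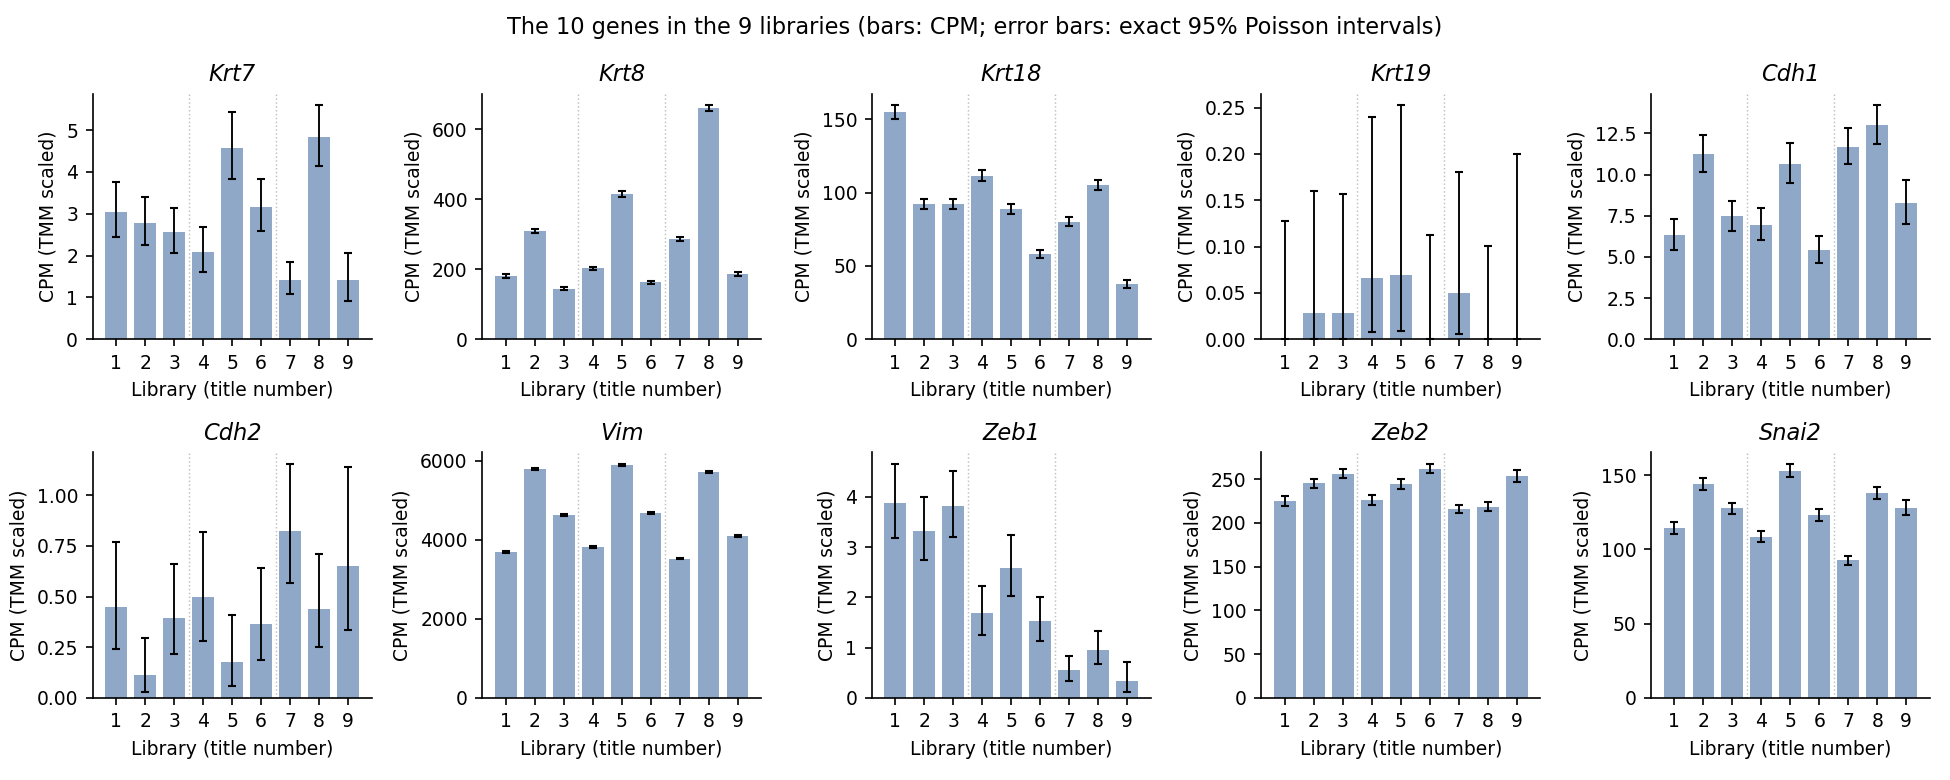
TMM-scaled CPM (y axes, each from 0) of the 10 genes in the 9 libraries (x axes, title numbers). Error bars are exact 95% Poisson intervals for counting error, and dotted lines part the runs of title numbers; Krt8 peaks at 660 CPM in library 8, Zeb1 is lowest in libraries 7 to 9, and Zeb2 stays between 215.5 and 262 CPM.

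Krt8, the type II keratin of simple epithelia, differed most among the abundant members. From library 1 to library 9 in title order, it stood at 181, 310.2, 145, 203, 415, 162.5, 286, 660 and 186 CPM. Libraries 2, 5 and 8 lay above the other 6 without overlap, and library 8 stood well above the next. That separation was shared by 20.0% of all tested genes. The highest and lowest library differed 4.56-fold (95% interval of counting error 4.42 to 4.70), and 94.5% of tested genes had a smaller range. Without library 8 the log2 range was 1.52 in place of 2.19. Its near copy Krt8-ps held 14 to 71 counts and the overlapping antisense gene Gm36026 26 to 103, small beside the 3434 to 24201 counts of Krt8.

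Krt18, the type I partner of Krt8, ordered the libraries differently. The levels in libraries 1 to 9, in the same order, were 155, 92.1, 92.2, 111, 88.8, 58.3, 80.3, 105 and 37.7 CPM. Library 1, which was among the low ones for Krt8, was the highest for Krt18, and library 9, the shallowest, was the lowest. The difference was 4.11-fold (3.79 to 4.46), and without library 9 the log2 range was 1.41 in place of 2.04. The range between the second highest and second lowest library was 0.93 on the log2 scale, under the 2-fold limit, so the call for Krt18 rests on libraries 1 and 9 together.

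The balance of the partners therefore shifted. In title order there were 1.17, 3.37, 1.57, 1.82, 4.67, 2.79, 3.56, 6.27 and 4.94 Krt8 counts per Krt18 count. The exact 95% interval was 1.12 to 1.21 in library 1, 6.06 to 6.49 in library 8 and 4.55 to 5.37 in library 9. Within each run of title numbers library 2, 5 or 8 had the largest ratio. At each place in a run the ratio was also larger at the next run, from 1.17 to 1.82 to 3.56 in libraries 1, 4 and 7, and from 1.57 to 2.79 to 4.94 in libraries 3, 6 and 9. The extremes differed 5.38-fold. Gene length and library scaling cancel when 1 ratio is compared across libraries.

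**Figure D2:**
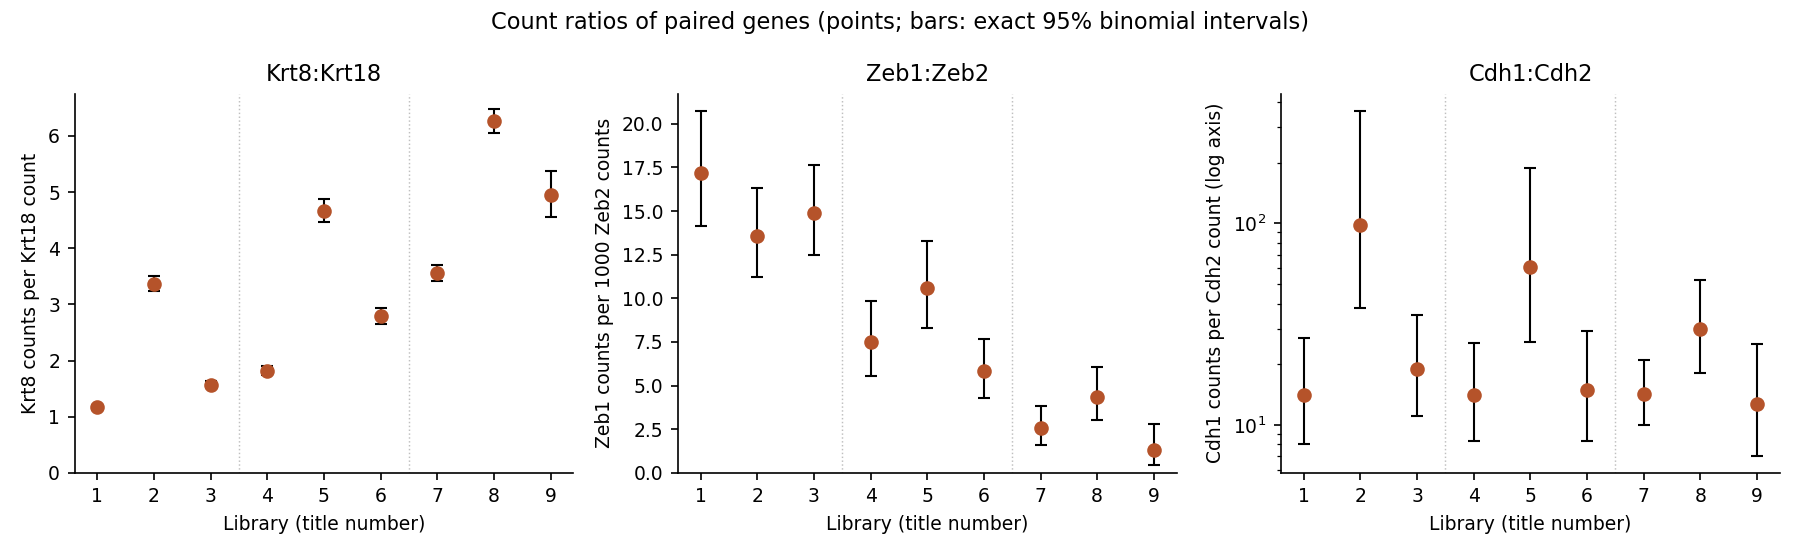
Count ratios (y axes) of Krt8 to Krt18, Zeb1 per 1000 Zeb2 counts, and Cdh1 to Cdh2 (log axis) in each library (x axes, title numbers), with exact 95% binomial intervals. Krt8:Krt18 runs from 1.17 in library 1 to 6.27 in library 8, and Zeb1 per 1000 Zeb2 from 17.2 in library 1 to 1.29 in library 9.

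Krt7, a type II keratin of ductal epithelia, was expressed at a low level. In title order the levels were 3.04, 2.78, 2.56, 2.09, 4.58, 3.17, 1.42, 4.83 and 1.41 CPM. Libraries 5 and 8 were high, as for Krt8, but library 2 was not. The range was 3.42-fold (2.26 to 5.38, adjusted p 1.39e-23 by the chi-square test of dispersion). Krt8 counts per Krt7 count ran from 51.3 in library 6 to 201 in library 7.

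Krt19, a type I keratin that can pair with K7 and K8 in luminal cells, was near absent. It held 8 counts over the 9 libraries, with 0 in libraries 1, 6, 8 and 9, 1 in libraries 2 and 3, and 2 in libraries 4, 5 and 7. No library reached the floor of 3 counts, so no difference was detectable at this depth. Of the other 46 keratin genes 12 had 0 counts in all libraries and 44 missed a mean of 1 CPM. Krt5 and Krt14, the basal mammary pair, reached 0.0287 and 1.31 CPM at most. The keratins that passed were Krt80, an epithelial keratin between 6.12 and 12.3 CPM that just missed the 2-fold limit, and Krt25, a hair follicle keratin. Krt25 stood between 0.0692 and 0.169 CPM in libraries 1 to 3, between 0.769 and 1.55 in libraries 4 to 6 and between 3.30 and 3.96 in libraries 7 to 9. It passed the mean through libraries 7 to 9 and was not tested with a filter in every library. The share of all tested genes with such a rise over the runs was not counted.

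Cdh1, the gene of E-cadherin at the adherens junction, was low but measured in every library. Libraries 1 to 9 in turn held 6.33, 11.2, 7.47, 6.97, 10.6, 5.43, 11.7, 12.99 and 8.25 CPM. The highest values were in libraries 2, 5, 7 and 8. The counting intervals of library 5 (9.47 to 11.9 CPM) and library 9 (6.99 to 9.67 CPM) overlapped. The highest library exceeded the lowest 2.39-fold (2.01 to 2.86, adjusted p 2.81e-41 by the chi-square test of dispersion). This range was close to the limit and came to 0.88 on the log2 scale between the second highest and second lowest library.

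Cdh2, the gene of N-cadherin in mesenchymal and neural cells, held 124 counts in all and stayed below 1 CPM. Its counts in title order were 13, 4, 14, 15, 5, 12, 33, 16 and 12. The lowest values were in libraries 2 and 5, where Cdh1 was high, and the highest CPM, 0.823, in library 7, where Cdh1 was high too. Tested without a filter on low values, Cdh2 was variable (adjusted p 0.000607 over 27105 genes, chi-square test of dispersion). Cdh1 had between 12.7 counts per Cdh2 count (library 9, interval 7.04 to 25.1) and 98 (library 2, 37.97 to 361.5), so the precision is poor at the upper end. By CPM per kb Cdh1 lay above Cdh2 throughout, at 1.19 or more against at most 0.102.

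Vim, the vimentin gene, missed the 2-fold limit but took a strict order. Its levels from library 1 to library 9 were 3692, 5796, 4622, 3814, 5900, 4673, 3524, 5721 and 4095 CPM. Libraries 2, 5 and 8 spanned 5721 to 5900 CPM, libraries 3, 6 and 9 spanned 4095 to 4673, and libraries 1, 4 and 7 spanned 3524 to 3814. The 3 places in a run thus did not overlap, a pattern noticed after the values were seen and shared by 1.72% of tested genes. The extremes differed 1.67-fold (1.66 to 1.69). Krt8 had 0.0313 counts per Vim count in library 3 and 0.115 in library 8, so the ratio of the epithelial to the mesenchymal filament gene ranged 3.68-fold.

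Snai2, the gene of the repressor Slug, took the same order of places as Vim. For libraries 1 to 9 in turn the levels were 114, 144, 128, 108.5, 153, 123, 92.6, 138 and 128 CPM. Libraries 2, 5 and 8 began at 138 CPM, libraries 3, 6 and 9 spanned 123 to 128, and libraries 1, 4 and 7 ended at 114. The range was 1.65-fold (1.58 to 1.73, adjusted p 6.93e-159 by the chi-square test of dispersion), under the limit. Of the 8 tested genes Vim and Snai2 were the ones with this order. Krt8, Cdh1, Vim and Snai2 were each highest of their run in libraries 2, 5 and 8, as were 30.1% of all tested genes.

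Zeb1 and Zeb2, which encode related zinc finger repressors, differed from each other in both level and spread. Levels of Zeb1 in title order were 3.87, 3.33, 3.82, 1.69, 2.59, 1.52, 0.549, 0.955 and 0.326 CPM. The values of libraries 1 to 3 lay above those of libraries 4 to 6, and these above those of libraries 7 to 9. This order was held by 1.91% of tested genes and by 1 of the 8. Counting intervals overlapped between runs, however. They did so for library 2 (2.75 to 3.99 CPM) and library 5 (2.03 to 3.25), and for library 6 (1.13 to 2.01) and library 8 (0.665 to 1.33). The range was 11.9-fold (5.30 to 33.1, adjusted p 7.35e-44 by the chi-square test of dispersion), wider than in 98.2% of tested genes. The lowest value rests on 6 counts, and without library 9 the log2 range was 2.69 in place of 3.34. Of the 3 runs, the third held 22, 35 and 6 counts and the first 112 to 136.

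Zeb2 had the narrowest range of the 8. From the first title number to the last it stood at 225, 245, 256.5, 226, 245, 262, 215.5, 219 and 254 CPM. Its libraries 3, 6 and 9 lay above the other 6, a pattern shared by 4.34% of tested genes, but the extremes differed only 1.22-fold (1.18 to 1.25). The counting interval of library 9 (246.4 to 261 CPM) overlapped those of library 2 (240 to 250.4) and library 5 (239.1 to 250.6). The antisense gene Zeb2os, which overlaps Zeb2, had 75 to 230 counts against 4671 to 9134 for Zeb2. Zeb1 counts per 1000 Zeb2 counts were 17.2, 13.6 and 14.9 in libraries 1 to 3, 7.48, 10.6 and 5.81 in libraries 4 to 6, and 2.55, 4.37 and 1.29 in libraries 7 to 9. At each place in a run (libraries 1, 4 and 7, then 2, 5 and 8, then 3, 6 and 9), the order of the libraries by Zeb1 was the reverse of their order by the Krt8:Krt18 ratio. This was noticed after the values were seen. How many other genes or ratios show it was not counted, and a link between Zeb1 and the keratin ratio was not tested.

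**Figure D3:**
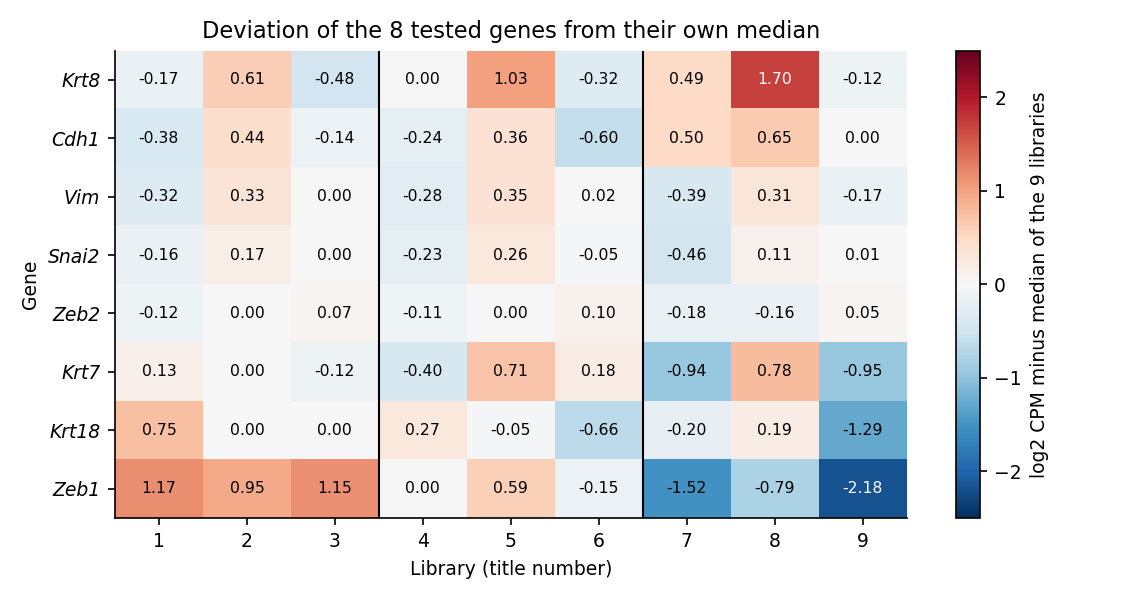
Deviation of log2 CPM from the median of the 9 values (colour and printed value) for the 8 tested genes (y axis) by library (x axis, title numbers, black lines between runs). Krt8, Vim and Snai2 are above their medians in libraries 2, 5 and 8, and Zeb1 goes from 1.17 in library 1 to -2.18 in library 9.

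Genes of cell division moved with the same title numbers and are given beside these results. The 12 division genes summed, in title order, to 42.8, 251, 34.3, 64.7, 408, 48.4, 147, 564 and 119.9 CPM. Mki67, the Ki-67 gene, reached 149 CPM in library 8 against 4.94 in library 3, and Ccnb2, Hmmr and Cenpf had the widest ranges of the list. All 12 were variable, against 27.3% of all tested genes, and highest in library 8. The share of all tested genes that were highest in library 8 was not counted. All 12 were also highest of their run in libraries 2, 5 and 8, as were 30.1% of all tested genes. The highest Krt8 values thus lay in the libraries with the highest division genes, and the part of the latter in the result was not tested. Libraries 1 to 3 and 7 to 9 also differed in this sum at the same place, 42.8 against 147, 251 against 564 and 34.3 against 119.9 CPM.

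The genes of nearest profile were looked for by the root mean square distance of median-centred log2 CPM over the 9 libraries, among 1881 genes whose mean reached 5 CPM and whose range reached 2-fold. Nearest to Krt8 were Podnl1 (0.15), Hist1h2ap (0.17) and Timeless (0.18 on the log2 scale). Podnl1, a leucine-rich repeat proteoglycan gene, had 10.4 CPM in library 3 and 38.7 in library 8. Hist1h2ap is a histone gene with near-identical copies, and its value is less certain. Nearest to Krt18 were Lmo1 (0.19), Me3 (0.21) and Mapk13 (0.21), each highest in library 1 and lowest in library 9. Nearest to Cdh1 were Hat1 (0.18), Zfp41 (0.18) and Ezh2 (0.19), each highest in library 8.

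**Figure D4:**
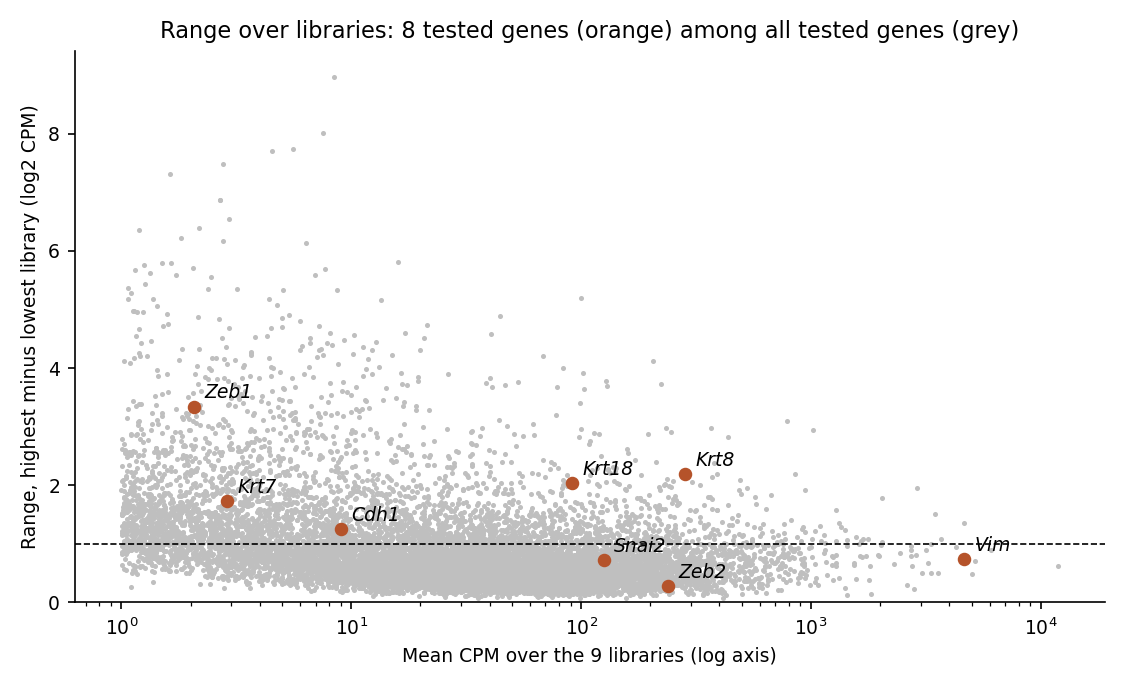
Range over the 9 libraries (y axis, log2 CPM) against mean CPM (x axis, log scale) for all 12328 tested genes (grey) and the 8 tested members (orange), with the 2-fold limit dashed. Zeb1, Krt8, Krt18, Krt7 and Cdh1 lie above the limit, and Vim, Snai2 and Zeb2 below it.

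Other genes of the epithelial programme were divided. In the list of tight junction, desmosome and epithelial surface genes 15 of 28 could be tested. Of these, 7 were variable (46.7%, against 27.3% of all tested genes). The 15 had a median log2 range of 0.94, and that of all tested genes was 0.67. Of the 15, 10 were lowest in library 9, the shallowest, against 18.1% of all tested genes. Pkp3, a desmosomal plaque gene, stood at 2.87, 3.73 and 1.69 CPM in libraries 1 to 3 and at 0.499, 1.39 and 0.489 in libraries 7 to 9. Prss8, a membrane serine protease gene, stood between 4.70 and 5.15 CPM in libraries 1 to 3 and between 2.68 and 3.98 in libraries 4 to 6. In libraries 7 to 9 it stood between 0.923 and 2.54 CPM, so the values of the runs did not overlap. This order was held by 1.91% of all tested genes. Library 6 (2.68 CPM from 88 counts) and library 8 (2.54 CPM from 93 counts) lay close together, and no counting interval was computed for Prss8. Lsr, a tricellular junction gene, had 4.72 CPM in library 9 and 20.0 in library 2. Epcam, a classical epithelial surface gene, held 31 counts in all and reached at most 0.218 CPM.

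Among epithelial transcription and splicing factors 7 of 17 were tested and 4 were variable (57.1%, against 27.3% of all tested genes). Trp63, the gene of the basal factor p63, stood at 4.91, 6.25 and 3.62 CPM in libraries 1 to 3, 2.26, 5.35 and 1.74 in libraries 4 to 6 and 0.898, 3.33 and 0.489 in libraries 7 to 9. Klf5, a factor of epithelial progenitors, ran the other way over places. It had 8.78, 11.4 and 16.8 CPM in libraries 2, 5 and 8 and 24.6 to 52.4 in the other 6. Of all tested genes 29.2% were lowest of their run in libraries 2, 5 and 8, and the share with the full separation was not counted. Esrp1, the epithelial splicing regulator gene, had 0 counts in all libraries, where the floor of 3 counts stands at 0.0748 to 0.163 CPM.

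Of 19 further EMT factor and co-repressor genes 16 were tested and 6 were variable (37.5%, against 27.3% of all tested genes). The median range was 0.82 on the log2 scale. By the second highest minus the second lowest library 3 were variable, against 1822 of all 12328 tested genes. Snai1, the gene of the repressor Snail, stood at 37.6, 45.3 and 56.4 CPM in libraries 2, 5 and 8 and between 14.3 and 21.3 in the other 6. Twist1, a helix-loop-helix EMT factor gene, reached 92.1 to 123 CPM in libraries 2, 5 and 8 and 43.9 to 64.8 elsewhere. The separation of libraries 2, 5 and 8 from the other 6 was shared by 20.0% of all tested genes. Twist2, a relative of Twist1, was lowest of its run in libraries 2, 5 and 8, as were 29.2% of all tested genes. Its levels there were 11.5, 9.96 and 7.56 CPM. It was highest in library 1 at 27.1 CPM. Foxc1, a forkhead gene, stood between 188 and 215 CPM in libraries 1 to 3 and between 105 and 159.9 in libraries 4 to 6. In libraries 7 to 9 it stood between 44.8 and 96.0 CPM. This was the order that Zeb1 took, held by 1.91% of all tested genes. The EMT factor genes thus did not share 1 order over the libraries.

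Of 16 adherens junction partners and other cadherin genes 9 were tested and 1 was variable (11.1%, against 27.3% of all tested genes). That gene was Jup, which encodes plakoglobin, at 39.4, 39.0 and 43.9 CPM in libraries 2, 5 and 8 and 15.9 to 28.3 in the other 6. Such a separation was shared by 20.0% of all tested genes. Ctnnb1, the beta-catenin gene, stayed between 1130 CPM in library 8 and 1756 in library 3. Ctnnd1, the p120-catenin gene, ran from 458 to 872 CPM with libraries 2, 5 and 8 highest, and Nectin2, a nectin adhesion gene, from 35.7 to 58.2 CPM. Both missed the limit.

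In the list of intermediate filament partners and mesenchymal cytoskeleton 13 of 18 genes were tested and 8 were variable. This was 61.5%, against 27.3% of all tested genes. The median range was 1.32 on the log2 scale. By the second highest minus the second lowest library 5 passed, against 1822 of all 12328 tested genes. Acta2, the smooth muscle actin gene, stood at 172, 251 and 244 CPM in libraries 2, 5 and 8 and between 37.2 and 64.0 in the other 6. This separation was shared by 20.0% of all tested genes. Tpm2, a tropomyosin gene, had 1.80 CPM in library 6 and 10.4 in library 8. Lmnb1, the lamin B1 gene, had 6.68 in library 3 and 35.6 in library 8. Fn1, the fibronectin gene, was the most abundant of these at 9468 to 14570 CPM, and was lowest of its run in libraries 2, 5 and 8, where Vim was highest. Of the 13 tested genes 9 were highest of their run in libraries 2, 5 and 8, and 1, Fn1, was lowest there, against 30.1% and 29.2% of all tested genes.

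**Figure D5:**
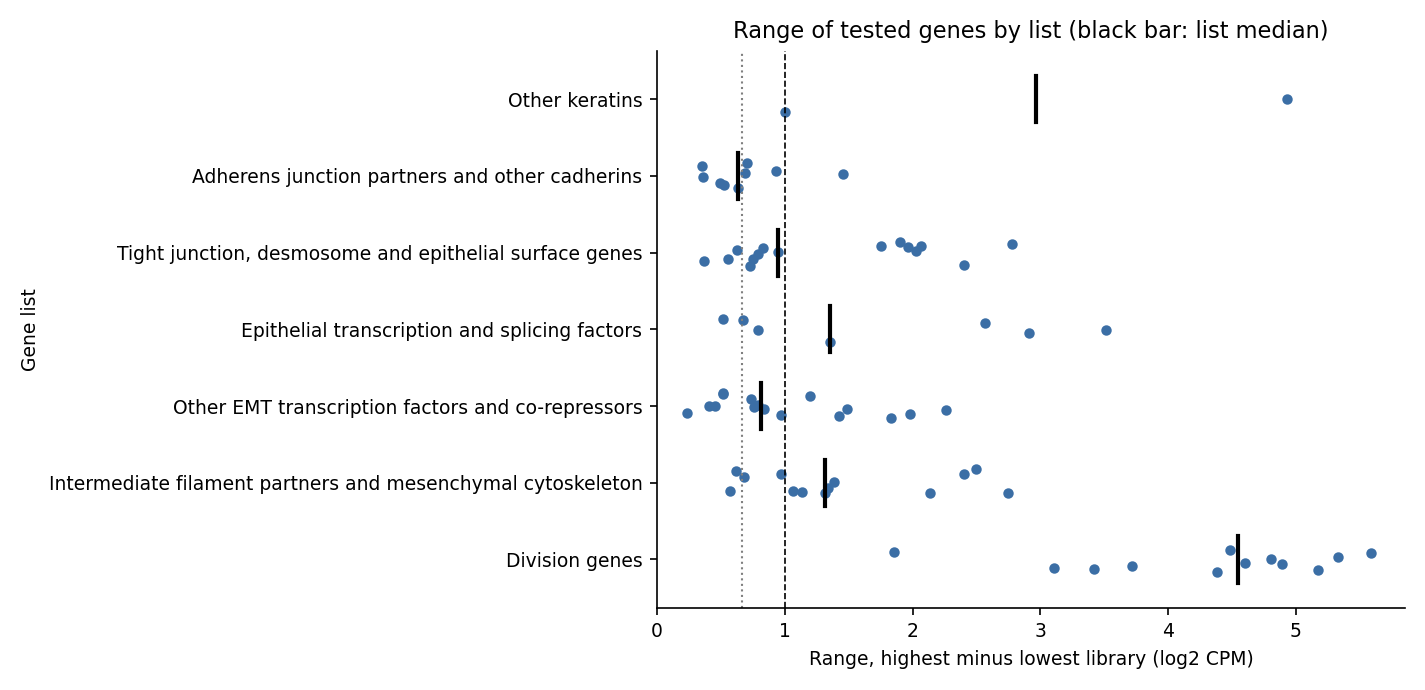
Range over the 9 libraries (x axis, log2 CPM) of each tested gene (points) in 7 gene lists (y axis), with list medians (black bars), the 2-fold limit (dashed) and the median of all tested genes, 0.67 (dotted). The adherens junction list has a median of 0.64 and the intermediate filament and mesenchymal list 1.32, and the division genes have a median of 4.55.

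The labelled mammary epithelial origin was checked against lists of markers. Of 12 luminal markers 7 reached 1 CPM in some library, among them Cd24a and Gata3, while Krt19, Epcam, Elf5, Pgr and Kit did not, and Pgr and Kit had 0 counts. Of 8 basal markers Krt14, Trp63, Acta2 and Oxtr reached it. Pdgfra, Pdgfrb and Col1a1 of 8 fibroblast markers were abundant, with Col1a1 at 1092 to 4210 CPM, whereas Dcn, Lum, Dpt, Thy1 and Pdpn stayed below 1 CPM. The 6 leukocyte and NK cell markers summed to at most 0.253 CPM and the 4 endothelial markers to at most 0.600. In RNA from many cells, more cells with a transcript and more transcript per cell cannot be told apart.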

How the data were processed

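The values are RSEM expected counts per gene, deposited by the authors in 1 table as whole numbers without normalisation. STAR 2.7.8a, RSEM 1.3.3, cutadapt 2.3 and FastQC 0.11.8 are named, with the build GRCm38, in the submitters' processing notes. No source used here gives the annotation release or the use of strand. All 9 columns matched 1 sample title each, and 5 reporter rows with 0 counts were left out. TMM factors (edgeR 4.0.16, R 4.3.3) were computed on full library totals. A prior count of 2 was added for log2 CPM, so ranges of low genes are understated. Genes with a mean of at least 1 CPM were tested by a chi-square test of dispersion against counting noise, adjusted by Benjamini-Hochberg. The test was checked on simulated counts that held only counting noise and set changes. That check does not cover the wider spread of the deposited counts. With no groups, edgeR's quasi-likelihood test had no coefficient to test. Adjusted p-values of Krt8, Krt18 and Vim were too small to be written. Intervals are exact 95% intervals (Poisson for a level, conditional binomial for a ratio), and intervals and floors cover counting error only. Exon lengths and coordinates are those of GENCODE M21 on GRCm38. The members and lists were chosen with earlier results of these data known. Genes named are the 10 members, up to 3 genes of widest range per list, 9 genes named in any case (Epcam, Snai1, Twist1, Esrp1, Ctnnb1, Krt5, Krt14, Fn1, Mki67), the 3 nearest profiles of each variable member whose mean reached 5 CPM, the cell type markers, and near copies or overlapping genes of the members. Of the genes and sequences this rule takes, some, and a planned count of a promoter motif, are not reported here.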

Additional observations from a re-analysis of the deposited data

How the results depend on the processing

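The count of variable genes among the members was 5 with every single library left out, with RLE size factors, with library totals alone, with a filter in every library and with a prior count of 0.5. It was 6 with no filter, where Cdh2 was added, and 7 with a 1.5-fold limit, which Vim (0.74) and Snai2 (0.73 on the log2 scale) passed. By the second highest minus the second lowest library it was 3, with Krt18 at 0.93 and Cdh1 at 0.88. Variable genes in the whole table numbered 3368 of 12328 tested, and 6367 of 27105 tested with no filter. Of the 12328 genes 7035 were variable with a 1.5-fold limit and 1822 by the second highest and lowest libraries. With single libraries left out the variable genes numbered 3067 to 3336. The lists held 39 variable genes of 74 tested. They held 60 with a 1.5-fold limit, 33 by the second highest and lowest libraries and 38 to 39 with single libraries left out. By the second highest and lowest libraries the EMT factor list held 3 in place of 6 and the mesenchymal cytoskeleton list 5 in place of 8. With a filter in every library the other keratins held 0 in place of 1, since Krt25 was then not tested. With single libraries left out, the range of the Krt8:Krt18 ratio went from 3.99-fold (without library 1) to 5.38-fold, that of Krt8:Krt7 from 2.67-fold (without library 7) to 3.92-fold, that of Krt8:Vim from 2.59-fold (without library 8) to 3.68-fold, and that of Zeb1:Zeb2 from 6.75-fold (without library 9) to 13.4-fold. Log2 ranges went from 1.52 to 2.20 for Krt8, 1.41 to 2.04 for Krt18, 1.03 to 1.27 for Cdh1, 1.66 to 1.76 for Krt7, 2.69 to 3.34 for Zeb1, 0.68 to 0.77 for Vim, 0.50 to 0.75 for Snai2 and 0.25 to 0.31 for Zeb2. Depth limits Zeb1 in library 9 (6 counts), Cdh2 and Krt19. No paired analysis was possible because no library could be given a group.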
